A study of Mus musculus with 19 samples.

Results

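The 34 genes described here encode the enzymes that build purine and pyrimidine nucleotides, recycle purine bases, supply deoxynucleotides for DNA and carry single-carbon units on folate. They were taken by name from a list of pathway members, and the rule used no measured value, although the list was drawn up with earlier results of these data known. In the gene tables they fall into 33 of 22756 entries, because Ppat and Paics are joined in 1 entry, and Pfas and Tk1 share theirs with Mir3062 and Afmid. All 33 entries passed the filter on low counts in every comparison, and the lowest count of any of them in any library was 19 reads, for Ada.

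RNA was sequenced from 19 libraries of mouse embryonic stem cells (ESC) of the Rex1 GFPd2 line, in which a short-lived green fluorescent protein (GFP) reports Rex1 (Zfp42), a gene of the naive ESC state. The starting library was of undifferentiated cells kept in LIF plus MEK and GSK3 inhibitors (Lif+2i). Cells moved to serum-based differentiation medium gave 1 library at day 2 and 1 of cells sorted that day for lack of both GFP and SSEA1, an antigen on the surface of naive ESC. Such double-negative cells were cultured on to day 15 without AICAR (1 library) or with AICAR, a nucleoside whose dose is not given in the sources used here. The AICAR cultures gave 1 library of unfractionated cells, 1 of GFP-negative cells and 3 of GFP-positive cells. GFP-positive cells were then expanded in Lif+2i, either from picked colonies (colony lines, 8 libraries) or after sorting (sorted lines, 2 libraries). No GFP-positive fraction was taken from differentiation medium without AICAR, so AICAR and the choice of GFP-positive cells cannot be told apart against day 15, nor AICAR and medium against the lines. Whether libraries of a group came from separate cultures is not given, and p-values therefore cover only the spread between these libraries, which may be technical. The titles and the sorting field disagree for the first day-2 library and for the AICAR fractions, and groups here follow the titles.

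Reads in genes numbered 5771671 to 8262357 in 17 libraries of 1 sequencing project, and 12751260 and 14233421 in AICAR GFP-positive libraries 1 and 2, which alone form the other project. Summed levels of 15 naive pluripotency markers were 5072 CPM (read counts scaled to a common library size) in undifferentiated cells, 330 at day 15 without AICAR, 2812 to 4072 in AICAR GFP-positive cells and 4636 to 5006 in colony lines. Summed levels of 15 mesenchyme and matrix markers were 2676 CPM in undifferentiated cells, 49025 at day 15 and 2103 to 3064 in AICAR GFP-positive cells. Summed levels of 10 endoderm markers were 5.62 CPM in undifferentiated cells, 366 at day 15, 998 in unfractionated and 860 in GFP-negative AICAR cells, 127, 123 and 894 in GFP-positive libraries 1, 2 and 3 and 2.36 to 17.2 in colony lines. For 10 muscle markers they were 14.3 CPM in undifferentiated cells, 3464 at day 15, 2031 in unfractionated and 296 in GFP-negative AICAR cells, 13.8 to 72.9 in GFP-positive cells and 10.02 to 166 in colony lines. Unfractionated AICAR cells also held 17142 CPM of the matrix markers. GFP-positive library 3 held the most of all these lists among the 3, and no endoderm or muscle marker was at 0 in that group. In the edgeR test no endoderm marker was called between GFP-positive and undifferentiated cells, although their sums differed as given above. The part of such other cells in the results that follow was not tested. In such bulk RNA, fewer cells of a type and less RNA per cell cannot be told apart.

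Purine nucleotides are assembled on ribose from phosphoribosyl pyrophosphate (PRPP) in a chain of reactions carried out by Ppat, Gart, Pfas, Paics, Adsl and Atic, which ends at inosine monophosphate (IMP). The monophosphate of AICAR is itself an intermediate of that chain, made by Adsl and consumed by Atic with a folate-bound carbon, and cells phosphorylate added AICAR to this compound, which also activates the energy-sensing kinase AMPK by mimicking AMP. Pyrimidines are built by Cad, Dhodh and Umps as a ring before the ribose is attached, ribonucleotide reductase (Rrm1 with Rrm2) and thymidylate synthase (Tyms) feed DNA synthesis, and the folate enzymes lend carbon to both the purine ring and thymidylate. Proliferating cells such as ESC are known for high expression of these genes.

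Because 32 of the 34 members have a promoter sequence in the RefSeq set, the letters just upstream of the genes can be shown beside their levels. The 8 stretches below are the 120 bases before the RefSeq start of members that later paragraphs describe, taken from build GRCm38.p6 and read 5′ to 3′ along the gene's strand. None overlaps a GENCODE exon or a RefSeq gene. The authors' tables use the older build mm9, so these positions do not carry over to them. Adsl and Hprt hold none of the motifs searched in these stretches. In the others, capitals mark a CCAAT box (CCAAT, or ATTGG on the other strand) or the NRF1 motif, a palindrome.
Gart, chr16:91646973-91647092, minus strand: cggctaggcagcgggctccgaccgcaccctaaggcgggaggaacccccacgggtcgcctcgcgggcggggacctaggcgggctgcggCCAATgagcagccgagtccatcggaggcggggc
Adsl, chr15:80948370-80948489, plus strand: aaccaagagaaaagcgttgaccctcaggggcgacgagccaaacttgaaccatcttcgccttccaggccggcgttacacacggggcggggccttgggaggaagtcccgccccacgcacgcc
Prps1, chrX:140456483-140456602, plus strand: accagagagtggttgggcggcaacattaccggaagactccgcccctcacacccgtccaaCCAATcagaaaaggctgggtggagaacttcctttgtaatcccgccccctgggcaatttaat
Hprt, chrX:52987958-52988077, plus strand: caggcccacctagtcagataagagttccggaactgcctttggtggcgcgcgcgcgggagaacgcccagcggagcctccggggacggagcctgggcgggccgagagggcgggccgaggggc
Rrm1, chr7:102441575-102441694, plus strand: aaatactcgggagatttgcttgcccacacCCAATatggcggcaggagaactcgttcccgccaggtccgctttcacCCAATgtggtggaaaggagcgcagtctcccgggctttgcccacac
Shmt1, chr11:60811266-60811385, minus strand: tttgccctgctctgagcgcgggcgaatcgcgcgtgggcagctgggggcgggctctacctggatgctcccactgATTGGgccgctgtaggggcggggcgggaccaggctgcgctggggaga
Shmt2, chr10:127522445-127522564, minus strand: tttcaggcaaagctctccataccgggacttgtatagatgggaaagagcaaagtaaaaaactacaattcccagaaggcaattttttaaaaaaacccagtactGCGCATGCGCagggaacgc
Ctps, chr4:120570277-120570396, minus strand: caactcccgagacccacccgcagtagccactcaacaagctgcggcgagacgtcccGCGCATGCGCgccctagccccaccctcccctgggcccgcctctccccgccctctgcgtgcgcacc

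Motifs of 5 kinds were searched on both strands of the RefSeq windows, which run from 250 bases before to 50 after the start. A CCAAT box stood in 13 of the 32 members (40.6%), against 41.1% of 27025 genes. The E-box CACGTG stood in 5 (Paics, Impdh2, Tyms, Nme1 and Ak4), or 15.6%, against 8.09% of all genes. An E2F site (TTTGGCGC, TTTCCCGC, TTTCGCGC or TTTGCCGC) was found in Ppat and Prps2, or 6.25% against 2.6%. The NRF1 motif was found in Ctps and Shmt2, or 6.25% against 1.07%, and the ATF4 composite letters TGATGNAAN in Prps1 alone, or 3.12% against 4.5%. No match of one motif in a member overlapped a match of another. Such matches describe the letters only. Ppat and Paics lie head to head on chromosome 5 (GRCm38, Ppat at 76913249 to 76951578 on the minus strand and Paics at 76951302 to 76967509 on the plus strand) and their annotated spans overlap by 277 bases, the arrangement under which the authors' table joins them.

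The group of genes was near its starting level at day 2 and low at day 15 without AICAR. It was in between in AICAR GFP-positive cells, also of day 15, and at its starting level in the lines. The median member stood at 103% of undifferentiated cells at day 2 and 97.9% in sorted day-2 cells. At day 15 without AICAR it stood at 39.6%, and all 33 entries were below undifferentiated cells. Among AICAR cultures, unfractionated cells stood at 52.9%, the GFP-negative fraction at 57.1% and the GFP-positive libraries at 70.8%. In colony lines it was 100.7% and in sorted lines 105.5%. The day-15 library held the lowest mean of 25 of the 33 entries, whereas among 9063 genes with at least 20 CPM in 1 group it was lowest for 37.3% (78.1% of the 32 members at that level). None of the 33 had its highest mean in any day-15 group of differentiation medium. Of the 9063 genes, 25.4% were highest at day 15 without AICAR, 6.22% in unfractionated, 10.5% in GFP-negative and 10.8% in GFP-positive AICAR cells.

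**Figure D1:**
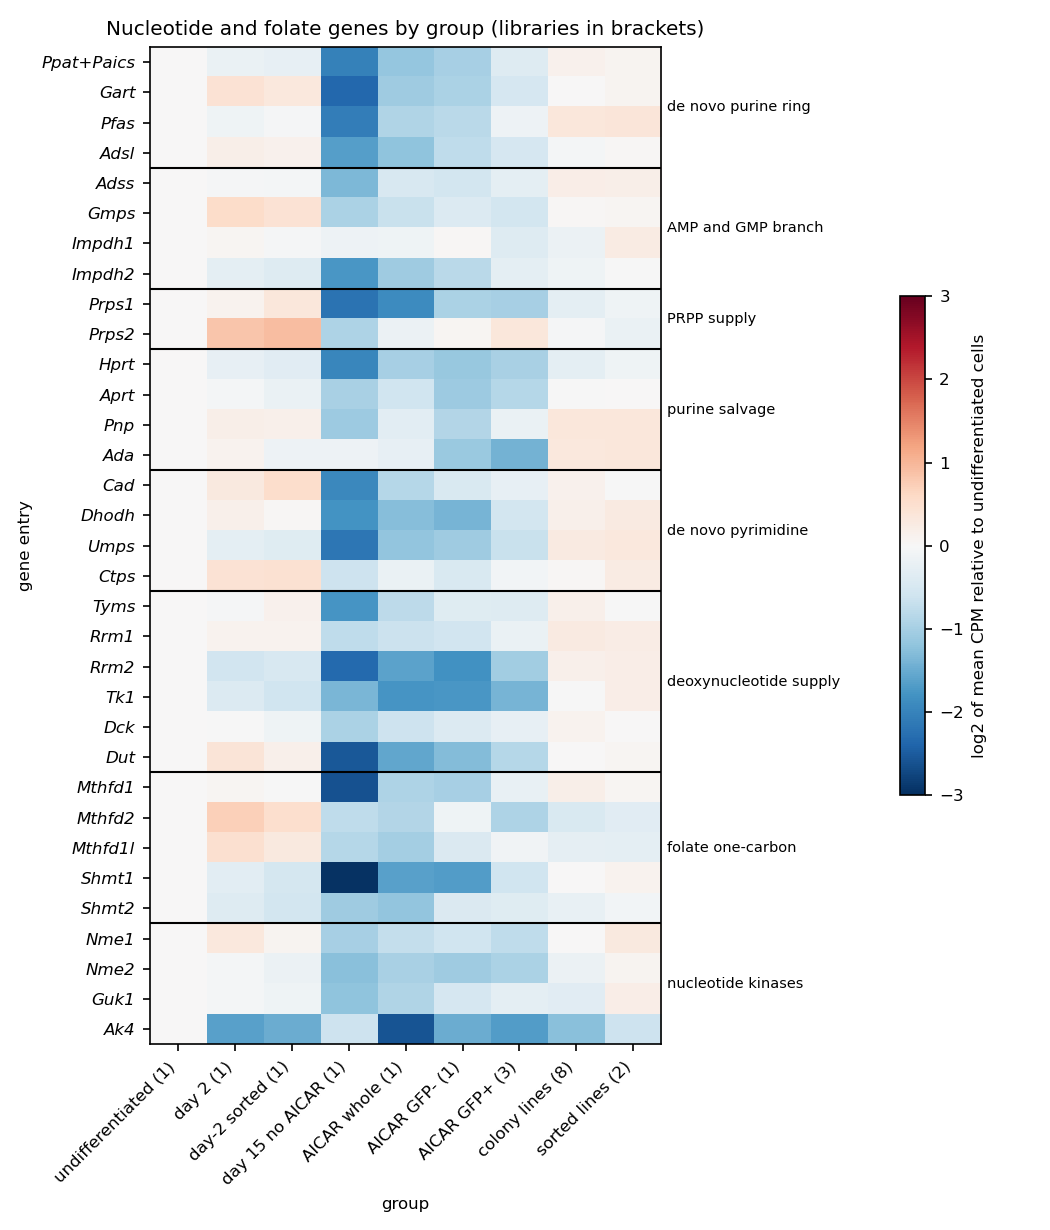
Heat map of the 33 entries (rows, ordered by step) in the 9 groups (columns, number of libraries in brackets); colour is the log2 of the mean CPM relative to the undifferentiated library. The day-15 column is below zero in all 33 rows, and the colony and sorted line columns lie close to zero for most rows.

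**Figure D2:**
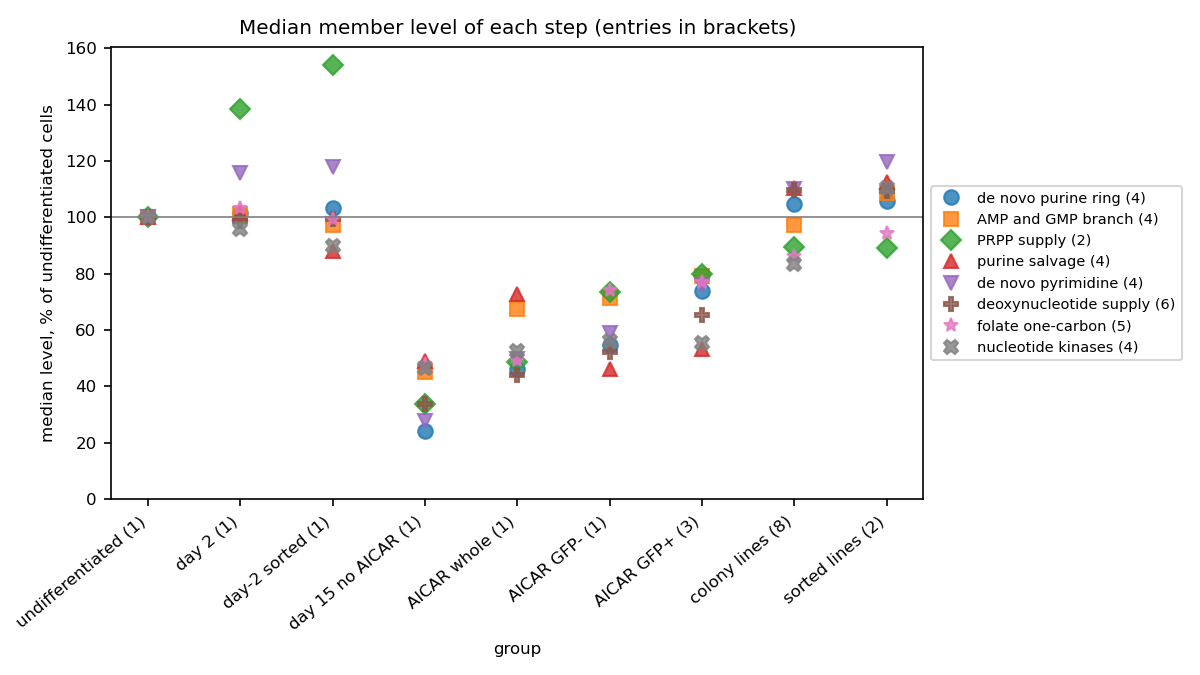
Median level of the entries of each step as a percentage of undifferentiated cells (vertical axis) in the 9 groups (horizontal axis); each symbol is 1 step. At day 15 the 8 medians lie between 24.2% for the purine ring and 49.1% for purine salvage.

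Comparisons of 1 library with 1 library have no replicate check and no p-value, and a gene was counted there when it differed by over 2-fold with at least 50 reads in 1 of the libraries. At day 2, 1 of 33 members was lower than in undifferentiated cells by this rule (Ak4), against 9.06% of all genes. None was higher, against 899 of 9763 genes. At day 15 without AICAR, 24 of 33 were lower than in undifferentiated cells, against 23.6% of all genes, with a median log2 ratio of -1.39 beside 0.03 over all genes. Against sorted day-2 cells, from which the day-15 culture was grown, 25 of 33 were lower at day 15, beside 21.8% of all genes. Unfractionated AICAR cells had 6 members above day 15 without AICAR (all genes, 9.97%) and 1 below, Ak4 (all genes, 17.2%). AICAR GFP-negative cells had 10 above (all genes, 11.3%) and none below (2429 of 11352 genes). These 2 comparisons and the next share the single day-15 library.

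Groups with replicates were compared by edgeR's quasi-likelihood test across all genes, with Benjamini-Hochberg adjusted p under 0.05. The AICAR cells are also of day 15. A gene said to rise against day 15 was thus higher than in the untreated day-15 library, with no order in time meant. The members' median log2 fold change between AICAR GFP-positive cells and day-15 cells without AICAR was 1.02. Of the 33 members 24 were higher and none lower, against 23.1% of all genes higher and 23.2% lower. Without GFP-positive library 2 the count was 12. Against undifferentiated cells 6 of 33 were lower (Hprt, Aprt, Rrm2, Tk1, Nme1 and Nme2) and none higher, beside 2.62% of all genes lower and 2.43% higher. The members' median log2 fold change was -0.52, beside 0.07 over all genes. The count of 6 rested on single libraries. It was 0 without GFP-positive library 1 or without library 2, and 19 without library 3, the one with the most endoderm signal. Libraries 1 and 2 alone form the other sequencing project, so the fit without library 3 cannot tell project from group. No share over all genes was taken for the fits with a library left out. DESeq2 called 16 members lower, these 6 among them, beside 8.44% of all genes.

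Colony lines had 25 of 33 members above AICAR GFP-positive cells (all genes, 27.6%) and 2 below, Prps2 and Mthfd1l (all genes, 30.3%). Without GFP-positive library 1 or library 3 only 1 was below, Prps2. Sorted lines had 23 above (all genes, 17.5%) and 1 below, Prps2 (all genes, 19.1%). The median log2 fold changes were 0.47 and 0.56, and both comparisons share the 3 AICAR GFP-positive libraries. Against the single GFP-positive library of the same sequencing project, the members' median log2 fold change was 0.55 for colony lines and 0.63 for sorted lines. Within that project the lone GFP-positive library had a median log2 ratio of 1.03 against day 15 and -0.61 against undifferentiated cells, with no test. The count for sorted lines depended on both of them: it was 5 without sorted line 1 and 6 without sorted line 2.

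**Figure D3:**
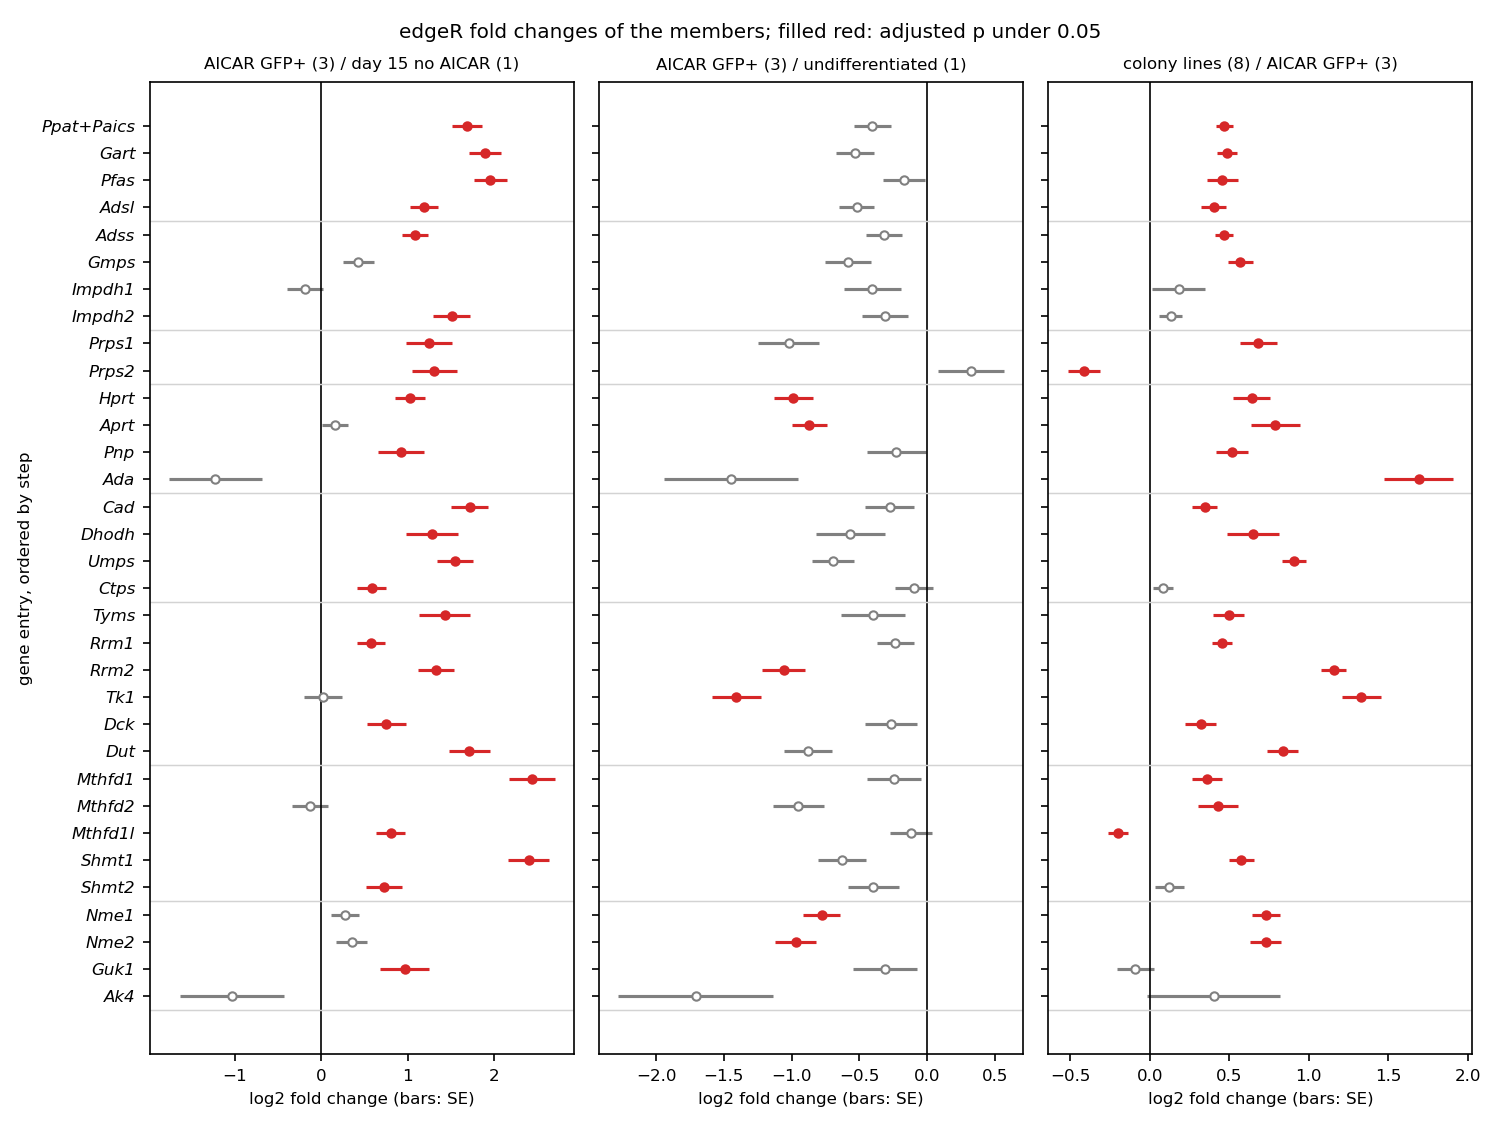
edgeR log2 fold changes with standard errors (horizontal axes) of the 33 entries (vertical axis, ordered by step) in the replicated comparisons shown; filled red points passed an adjusted p of 0.05. Points lie to the right of zero for 24 called members against day 15 and to the left for 6 against undifferentiated cells.

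The de novo purine ring was the step lowest at day 15. Gart, whose protein carries several activities of the chain, was at 564 CPM in undifferentiated cells, 767 at day 2, 700 in sorted day-2 cells and 109 at day 15. With AICAR, unfractionated cells held 271 CPM of Gart, GFP-negative cells 294 and the 3 GFP-positive libraries 397, 418 and 373. Colony lines held 533 to 605 CPM (median 565) and sorted lines 618 and 577. The GFP-positive libraries thus lay above day 15 and below every Lif+2i library, with no overlap. Gart was 3.72-fold higher in GFP-positive cells than in untreated day-15 cells (log2 1.89 ± 0.19 SE, edgeR adjusted p = 0.00376). It was 1.4-fold higher in colony lines than in GFP-positive cells (log2 0.48 ± 0.06, edgeR adjusted p = 2.32e-05).

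The joined entry of Paics and Ppat, which start the chain and add carbon dioxide and aspartate to the ring, had the same order. It was at 829 CPM in undifferentiated cells, 203 at day 15, 615, 659 and 634 in the GFP-positive libraries, and 877 to 933 in colony lines. Its log2 fold change was 1.69 ± 0.18 against day 15 (edgeR adjusted p = 0.00414) and 0.47 ± 0.05 between colony lines and GFP-positive cells (edgeR adjusted p = 5.94e-06). Pfas, the amidotransferase between Gart's activities, was at 219 CPM in undifferentiated cells, 52.2 at day 15, 213, 199 and 180.5 in the GFP-positive libraries and 238 to 325 in colony lines. The undifferentiated level lay only slightly above the GFP-positive range. Adsl, the lyase that releases the AICAR nucleotide and later AMP, was at 135 CPM in undifferentiated cells, 43.3 at day 15, 91.4 to 99.7 in GFP-positive cells and 109 to 143 in colony lines. All 4 entries rose against day 15, and all 4 were higher in both kinds of line than in GFP-positive cells. None of the 4 passed the edgeR test between GFP-positive and undifferentiated cells, where the log2 fold changes ran from -0.17 (Pfas) to -0.53 (Gart).

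In the branch from IMP to AMP and GMP, the isoenzymes of IMP dehydrogenase, the first enzyme toward GMP, differed. Impdh2 was at 681 CPM in undifferentiated cells, 202 at day 15, 614, 571 and 489.8 in the GFP-positive libraries and 591 to 669 in colony lines. It rose 2.84-fold against day 15 (log2 1.51 ± 0.21, edgeR adjusted p = 0.00731). Impdh1 was at 64.8 CPM in undifferentiated cells, 58.2 at day 15, 43.3, 49 and 57.2 in the GFP-positive libraries and 33.1 to 67.6 in colony lines. Its log2 fold change against day 15 was -0.19 ± 0.21 (edgeR adjusted p = 0.488). Per exon length, Impdh2 was at 432 RPKM (read counts scaled to gene length and library size) and Impdh1 at 39.3 in undifferentiated cells, against 148 and 40.9 at day 15, so the distance between the isoenzymes' levels was smaller at day 15. Adss, the first enzyme toward AMP, was at 181 CPM in undifferentiated cells, 71.7 at day 15, 143 to 151 in GFP-positive cells and 200 to 221 in colony lines, and rose in both contrasts (log2 1.08 ± 0.15 against day 15 and 0.47 ± 0.06 for colony lines against GFP-positive cells). Gmps, which completes GMP, was at 203 CPM in undifferentiated cells, 299 at day 2, 104 at day 15, 127 to 155 in GFP-positive cells and 184 to 223 in colony lines. Gmps did not pass the edgeR test against day 15 (log2 0.43 ± 0.18, adjusted p = 0.107) and was higher in colony lines than in GFP-positive cells (log2 0.57 ± 0.08, edgeR adjusted p = 3.62e-05).

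PRPP, the ribose donor for purines, pyrimidines and salvage alike, is made by the synthetases Prps1 and Prps2, whose genes moved apart. Prps1 was at 75.9 CPM in undifferentiated cells, 95.3 in sorted day-2 cells, 16.4 at day 15, 32.4, 37.1 and 44.4 in the GFP-positive libraries, 50.3 to 69.9 in colony lines and 69.6 and 68.4 in sorted lines. Prps2 was at 36.7 CPM in undifferentiated cells, 69.3 in sorted day-2 cells, 19.3 at day 15, 56.1, 40.9 and 43.1 in the GFP-positive libraries, 32.5 to 41.7 in colony lines and 33.3 and 31 in sorted lines. Both rose against day 15 (log2 1.25 ± 0.26 and 1.31 ± 0.26, edgeR adjusted p = 0.0191 and 0.0158). From GFP-positive cells to colony lines Prps1 rose (log2 0.68 ± 0.12, edgeR adjusted p = 0.000229) while Prps2 fell (log2 -0.42 ± 0.1, edgeR adjusted p = 0.00289), with 1 colony line inside the GFP-positive range. For Prps2, both sorted lines lay below all 3 GFP-positive libraries (log2 -0.56 ± 0.17, edgeR adjusted p = 0.0411). With only the GFP-positive library of the lines' sequencing project, Prps2 no longer passed for colony lines (log2 -0.28). Its log2 fold change for sorted lines was then -0.43. The call for sorted lines held without GFP-positive library 2 or 3 (edgeR adjusted p = 0.0437 and 0.0126). It also held in an edgeR fit with replicate number as a block (adjusted p = 0.000716). The call for sorted lines was lost without GFP-positive library 1 (edgeR adjusted p = 0.0658), sorted line 1 (0.191) or sorted line 2 (0.253). Per length, Prps1 was above Prps2 in undifferentiated cells (69.3 and 34.5 RPKM) and in colony lines (55.7 and 33), and Prps2 was above Prps1 at day 15 (21 and 17.3 RPKM) and in unfractionated AICAR cells (36.2 and 22.1). In GFP-positive cells Prps2 was above Prps1 in libraries 1 (57.6 and 32.4 RPKM) and 2 (43.2 and 38.1), and the levels were 45.9 RPKM for both in library 3.

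Purine salvage holds 2 of the 6 members that were lower in AICAR GFP-positive than in undifferentiated cells. Hprt, which recycles hypoxanthine and guanine, was at 174 CPM in undifferentiated cells, 44.9 at day 15, 83.1, 90.4 and 93.9 in the GFP-positive libraries and 110 to 161 in colony lines. It was 1.98-fold lower in GFP-positive than in undifferentiated cells (log2 -0.99 ± 0.14, edgeR adjusted p = 0.0416) and rose against day 15 (log2 1.02 ± 0.17, edgeR adjusted p = 0.0107). Aprt, which recycles adenine, was at 150.3 CPM in undifferentiated cells, 77 at day 15, 80.5, 85.3 and 84.8 in the GFP-positive libraries and 87.9 to 172 in colony lines. Aprt in GFP-positive cells lay near day 15 (log2 0.15 ± 0.15, edgeR adjusted p = 0.434) and below undifferentiated cells (log2 -0.87 ± 0.13, edgeR adjusted p = 0.0432). Pnp, the phosphorylase that frees purine bases from nucleosides, was at 102 CPM in undifferentiated cells, 47.7 at day 15, 71.3 to 101.2 in GFP-positive cells and 117 to 142 in colony lines, and rose in both contrasts. Its reads cannot be fully told apart from those of its near copy Pnp2.

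Ada, which deaminates adenosine, was the lowest member and had its own pattern. It was at 6.53 CPM in undifferentiated cells, 5.85 at day 15, 5.52 in unfractionated AICAR cells and 3.01 in GFP-negative cells. The GFP-positive libraries held 1.72, 3.13 and 2.42 CPM, below every library outside the AICAR fractions. Colony lines held 7 to 11.1 CPM. Ada was 3.23-fold higher in colony lines than in GFP-positive cells (log2 1.69 ± 0.22, edgeR adjusted p = 1.73e-05), the largest fold change of the 33 in that contrast. Against day 15 its log2 fold change was -1.22 ± 0.53 and did not pass (edgeR adjusted p = 0.117).

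In the pyrimidine pathway all 4 members rose against day 15. Umps, which joins the ring to ribose and makes UMP, was at 170 CPM in undifferentiated cells, 37.6 at day 15, 107, 117 and 97 in the GFP-positive libraries, 184 to 220 in colony lines and 209 and 216 in sorted lines. It rose 2.92-fold against day 15 (log2 1.55 ± 0.2, edgeR adjusted p = 0.00629) and 1.87-fold from GFP-positive cells to colony lines (log2 0.91 ± 0.08, edgeR adjusted p = 4.4e-07). Cad, the protein of the first reactions, was at 611 CPM in undifferentiated cells, 884 in sorted day-2 cells, 160.5 at day 15, 591, 482 and 468 in the GFP-positive libraries and 619 to 742 in colony lines. It rose against day 15 (log2 1.71 ± 0.22, edgeR adjusted p = 0.00589) and from GFP-positive cells to colony lines (log2 0.35 ± 0.08, edgeR adjusted p = 0.00164), but did not pass for sorted lines (log2 0.23 ± 0.12, edgeR adjusted p = 0.167). Dhodh, the mitochondrial enzyme that closes the ring's oxidation, was at 49.2 CPM in undifferentiated cells, 14.3 at day 15, 28.2 to 41.2 in GFP-positive cells and 32.9 to 62.7 in colony lines. Ctps, which makes CTP, moved least of the 4: 149 CPM in undifferentiated cells, 97 at day 15, 131 to 148 in GFP-positive cells and 146 to 164 in colony lines. Its promoter stretch above carries the NRF1 letters. Ctps did not pass between colony lines and GFP-positive cells (log2 0.08 ± 0.06, edgeR adjusted p = 0.291).

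Among the genes that supply deoxynucleotides, the subunits of ribonucleotide reductase differed in size of change. Rrm2, the subunit whose level follows the cell cycle, was at 393 CPM in undifferentiated cells, 265 at day 2, 78.4 at day 15, 129 in unfractionated and 112 in GFP-negative AICAR cells, 198, 208 and 170 in the GFP-positive libraries and 403 to 474 in colony lines. It was 2.08-fold lower in GFP-positive than in undifferentiated cells (log2 -1.06 ± 0.16, edgeR adjusted p = 0.0432) and 2.23-fold higher in colony lines than in GFP-positive cells (log2 1.16 ± 0.08, edgeR adjusted p = 6.75e-08). Rrm1, the large catalytic subunit, was at 359 CPM in undifferentiated cells, 213 at day 15, 325, 312 and 293 in the GFP-positive libraries and 398 to 466 in colony lines. Its log2 fold change between GFP-positive and undifferentiated cells was -0.23 ± 0.14 and did not pass (edgeR adjusted p = 0.319). Rrm1 was 1.37-fold higher in colony lines than in GFP-positive cells (log2 0.45 ± 0.06, edgeR adjusted p = 3.59e-05).

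The entry of Tk1, the thymidine salvage kinase of S phase, was low in every AICAR fraction. It was at 71 CPM in undifferentiated cells, 53.1 at day 2, 27.5 at day 15, 20.7 in unfractionated and 21.1 in GFP-negative AICAR cells, 24.7, 28.6 and 28.3 in the GFP-positive libraries and 51.9 to 81.7 in colony lines. The GFP-positive range spans the day-15 value (log2 0.02 ± 0.22, edgeR adjusted p = 0.943). The entry was 2.66-fold lower in GFP-positive than in undifferentiated cells (log2 -1.41 ± 0.18, edgeR adjusted p = 0.0416) and 2.94-fold higher in sorted lines than in GFP-positive cells (log2 1.56 ± 0.12, edgeR adjusted p = 0.00109). Reads of the neighbouring gene Afmid are part of this entry. Dut, which removes dUTP, was at 182 CPM in undifferentiated cells, 31.5 at day 15, 85.7 to 111 in GFP-positive cells and 149 to 198 in colony lines, and rose against day 15 (log2 1.71 ± 0.23, edgeR adjusted p = 0.00663). Tyms was at 251 CPM in undifferentiated cells, 73.8 at day 15, 214, 216 and 150 in the GFP-positive libraries and 258 to 294 in colony lines, and Dck, the deoxycytidine kinase, at 34.3, 17.7, 26.7 to 30.4 and 32.9 to 44.4 CPM. All 6 entries of this step were higher in colony lines than in GFP-positive cells.

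**Figure D4:**
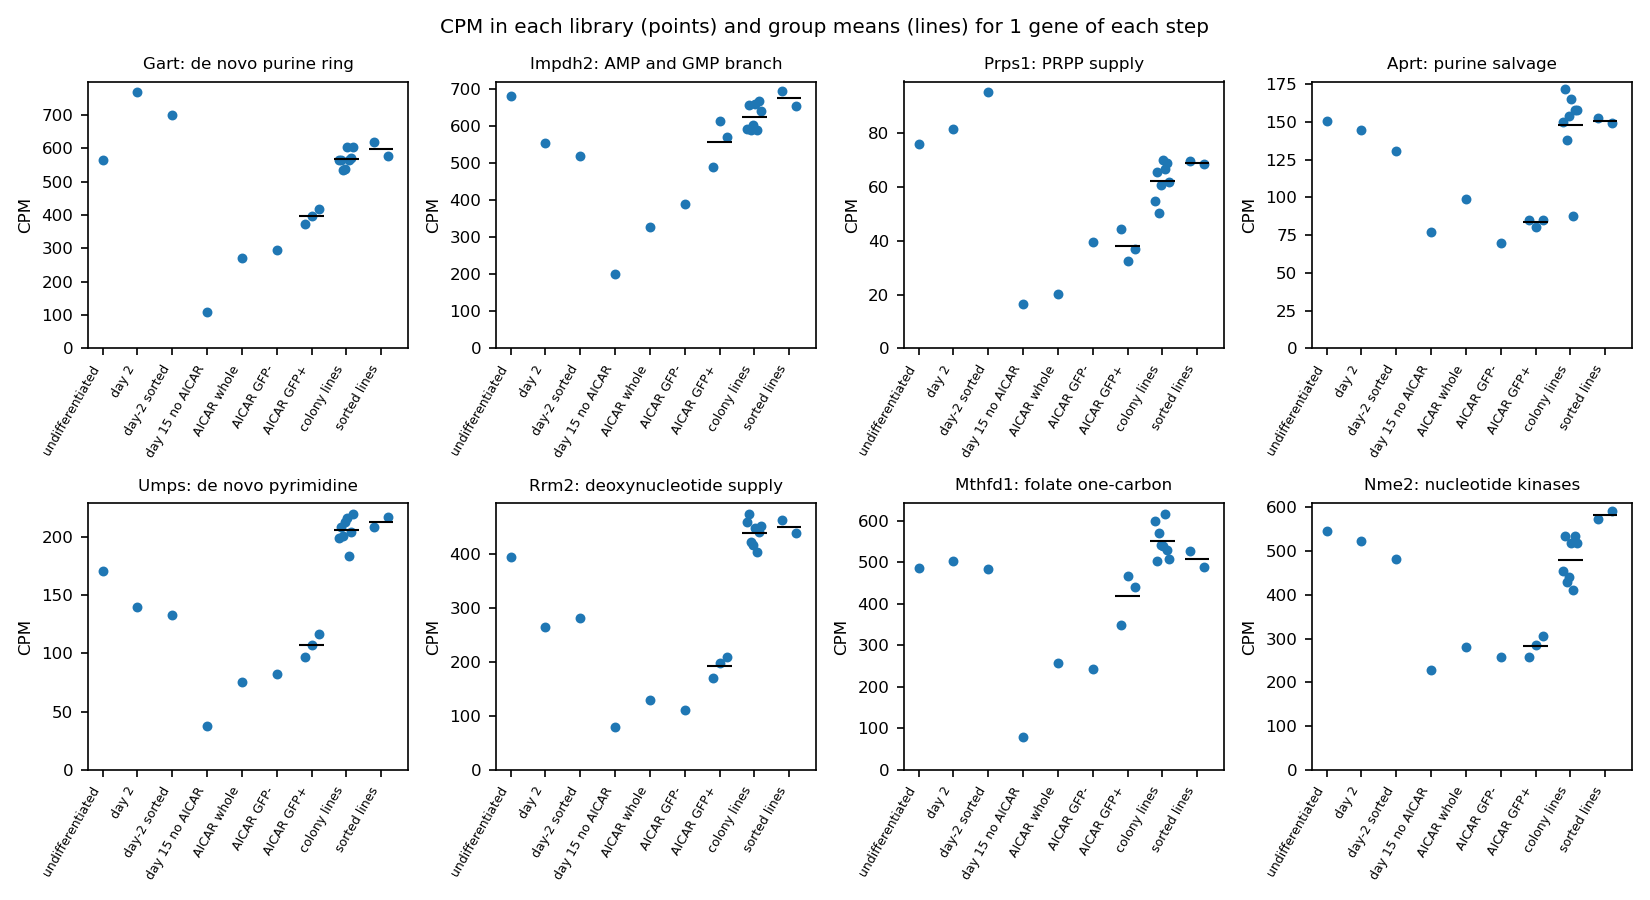
CPM of 1 gene of each step in every library (points) with group means (lines), over the 9 groups (horizontal axis). Gart, for example, lies at 109 CPM at day 15, at 373 to 418 in the 3 AICAR GFP-positive libraries and at 533 to 605 in the 8 colony lines.

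Against day 15, the cytosolic folate enzymes Mthfd1 and Shmt1 had the largest fold changes of the 33 entries in AICAR GFP-positive cells. Mthfd1, the cytosolic enzyme that interconverts folate-bound carbon units, was at 487 CPM in undifferentiated cells, 485 in sorted day-2 cells, 79.5 at day 15, 258 in unfractionated and 244 in GFP-negative AICAR cells, 468, 440.0 and 349 in the GFP-positive libraries and 503 to 616 in colony lines. It rose 5.41-fold against day 15 (log2 2.44 ± 0.26, edgeR adjusted p = 0.00429). Shmt1, the cytosolic enzyme that takes a carbon from serine, was at 218 CPM in undifferentiated cells, 153 in sorted day-2 cells, 27.9 at day 15, 70.7 in unfractionated and 68.7 in GFP-negative AICAR cells, 160.2, 147 and 123 in the GFP-positive libraries and 195 to 228 in colony lines. It rose 5.28-fold against day 15 (log2 2.4 ± 0.24, edgeR adjusted p = 0.00383) and 1.49-fold from GFP-positive cells to colony lines (log2 0.57 ± 0.08, edgeR adjusted p = 3.25e-05). Every GFP-positive library of both genes lay above all day-15 libraries of other kinds and below the undifferentiated library.

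Shmt2, the mitochondrial counterpart of Shmt1, was at 168 CPM in undifferentiated cells, 80.6 at day 15, 73.8 in unfractionated AICAR cells, 114, 130 and 147 in the GFP-positive libraries and 131 to 160 in colony lines. It rose 1.65-fold against day 15 (log2 0.73 ± 0.21, edgeR adjusted p = 0.0401) and did not pass between colony lines and GFP-positive cells (log2 0.12 ± 0.09, edgeR adjusted p = 0.268). Per length, Shmt1 was above Shmt2 in undifferentiated cells (120 and 103 RPKM) and below it at day 15 (17.8 and 57.2 RPKM), and the levels were 88 and 89.1 RPKM in GFP-positive cells. The promoter stretches above carry a CCAAT box for Shmt1 and the NRF1 letters for Shmt2. Mthfd1l, the mitochondrial formate-releasing enzyme, was at 135 CPM in undifferentiated cells, 187 at day 2, 74.2 at day 15, 114 to 136 in GFP-positive cells and 108 to 119 in colony lines, and was slightly lower in colony lines than in GFP-positive cells (log2 -0.2 ± 0.06, edgeR adjusted p = 0.0158) with overlapping libraries. Mthfd2, a mitochondrial enzyme linked to proliferation, was at 44.2 CPM in undifferentiated cells, 73 at day 2, 26.1 at day 15, 40.2 in GFP-negative AICAR cells, 21.9 to 25 in GFP-positive cells and 23.5 to 37.5 in colony lines. Mthfd2 did not pass against day 15 (log2 -0.13 ± 0.21, edgeR adjusted p = 0.633).

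Of the nucleotide kinases, Nme1 and Nme2, which charge nucleoside diphosphates, were lower in AICAR GFP-positive than in undifferentiated cells. Nme2 was at 546 CPM in undifferentiated cells, 228 at day 15, 286, 306 and 257 in the GFP-positive libraries, 411 to 535 in colony lines and 573 and 591 in sorted lines. It was 1.96-fold lower in GFP-positive cells than in undifferentiated cells (log2 -0.97 ± 0.15, edgeR adjusted p = 0.0451) and 1.66-fold higher in colony lines than in GFP-positive cells (log2 0.73 ± 0.1, edgeR adjusted p = 3.08e-05). Nme1 had 145, 72.7, 82.1 to 90.4 and 129 to 163 CPM in undifferentiated, day-15, GFP-positive and colony libraries, and the near identity of these neighbouring genes leaves their separate counts uncertain. Neither passed against day 15. Guk1, the guanylate kinase, was at 41.9 CPM in undifferentiated cells, 18 at day 15, 28.1 to 38.7 in GFP-positive cells and 27.2 to 38.6 in colony lines, and rose against day 15 (log2 0.97 ± 0.28, edgeR adjusted p = 0.0434).

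Ak4, a mitochondrial adenylate kinase known as a target of the hypoxia response, followed none of the other genes. It was at 51.2 CPM in undifferentiated cells, 16.6 at day 2, 18.1 in sorted day-2 cells, 33.4 at day 15, 8.55 in unfractionated and 18.4 in GFP-negative AICAR cells. The GFP-positive libraries held 7.91, 14.8 and 25.2 CPM. A fit without library 3 keeps only those of the other sequencing project, so it cannot tell project from group. Colony lines 1, 4 and 5 held 9.36 to 10.6 CPM and the other 5 held 25 to 32.4. With all libraries the edgeR test called Ak4 in no comparison (adjusted p = 0.129 against undifferentiated cells and 0.213 against day 15), with standard errors of 0.57 and 0.61 on the log2 scale. Without GFP-positive library 3, which held the most Ak4 of the 3, edgeR called it lower in GFP-positive cells than in undifferentiated cells (log2 -2.19, adjusted p = 0.000525) and than at day 15 (log2 -1.53, adjusted p = 0.0032), and higher in sorted lines than in GFP-positive cells (log2 1.53, adjusted p = 0.0014). With all libraries Ak4 was also called lower against undifferentiated cells in 1 edgeR fit over all groups (adjusted p = 0.0482) and by DESeq2 (adjusted p = 0.025). It was called higher in sorted lines by DESeq2 (adjusted p = 0.0376) and by edgeR with replicate number as a block (log2 1.58, adjusted p = 7.26e-08). Against only the GFP-positive library of the lines' sequencing project, its log2 fold change was 0.4 for sorted and -0.26 for colony lines.

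Between AICAR GFP-positive and GFP-negative cells no member passed the edgeR test, and neither did any gene of 13821 (0%). At an unadjusted p under 0.05 there were 10 members and 3022 genes in all. The log2 fold changes were positive for 25 of 33 members with a median of 0.22, and ran from -0.83 for Mthfd2 to 1.02 for Shmt1. Shmt1 was at 123 to 160.2 CPM in the 3 GFP-positive libraries and 68.7 in the GFP-negative one (log2 1.02 ± 0.2, edgeR adjusted p = 0.139), and the joined Paics and Ppat entry at 615 to 659 and 418 (log2 0.57 ± 0.14, edgeR adjusted p = 0.154). Rrm2 was at 170 to 208 and 112 CPM (log2 0.74 ± 0.18, edgeR adjusted p = 0.15). DESeq2 called 5 members higher (Mthfd1, the Paics and Ppat entry, Rrm2, Pfas and Shmt1), beside 5.39% of all genes. Without GFP-positive library 3, edgeR called 10 members higher and 2 lower, Impdh1 and Mthfd2. Both GFP-positive libraries of that fit are of the other sequencing project, so it cannot tell project from fraction. No share over all genes was taken for that fit. The GFP-negative side is a single library, so a difference could not be set against its own spread.

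The lines were close to the undifferentiated library. No member passed the edgeR test between colony lines and undifferentiated cells, where 0.0325% of all genes did, and none between colony and sorted lines, where 0% did. At an unadjusted p under 0.05 the counts were 7 members and 2385 genes in all against undifferentiated cells, and 6 members and 1092 genes between the kinds of line. The median log2 fold changes were -0.03 and -0.06. The smallest p among members against undifferentiated cells was that of Mthfd1l (log2 -0.3 ± 0.09, edgeR adjusted p = 0.152), with all 8 lines below 135 CPM. Between the kinds of line it was that of Guk1, at 27.2 to 38.6 CPM in colony lines and 51.4 and 44.2 in sorted lines (log2 -0.54 ± 0.12, edgeR adjusted p = 0.52). The undifferentiated group has 1 library. DESeq2 and the other settings called none of the 33 in either comparison.

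Across the 8 colony lines the members varied about as much as other genes. The median coefficient of variation was 8.15% over the 32 entries with a mean of at least 20 CPM, beside 9.39% over 6560 genes of that level. The joined Paics and Ppat entry varied least, by 2.28%, and Ak4 most, by 45.5%. The lines did not form 1 even group. Over all genes, the chi-square per degree of freedom between the counts of a pair was 1.96 to 6.34 among lines 3, 6, 9 and 10, 2.9 to 4.09 among lines 1, 4 and 5, 8.31 to 15 between these sets, and 7.3 to 14.9 for line 7 with any other. Nme2 was at 454, 430, 441 and 411 CPM in lines 1, 4, 5 and 7 and at 534, 519, 535 and 519 in lines 3, 6, 9 and 10. Hprt was at 139.7, 110, 134 and 121 CPM in lines 1, 4, 5 and 7 and at 159.9, 161, 156 and 157 in lines 3, 6, 9 and 10. Nme2 and Hprt were picked from the 33 entries, and no share over all genes was taken. Other members overlapped between these lines, such as Rrm1 at 398 to 466 and 413 to 453 CPM. Such sets come from the data and not from the labels, and they were not tested. Line 7 stood apart for several members, and no share over all genes was taken for this either. Line 7 held the lowest Aprt (87.9 CPM), Dhodh (32.9), Dut (149) and Shmt1 (195) and the highest Ada (11.1) of the 8. Leaving line 7 out changed no count of called members in the 3 comparisons with colony lines.

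**Figure D5:**
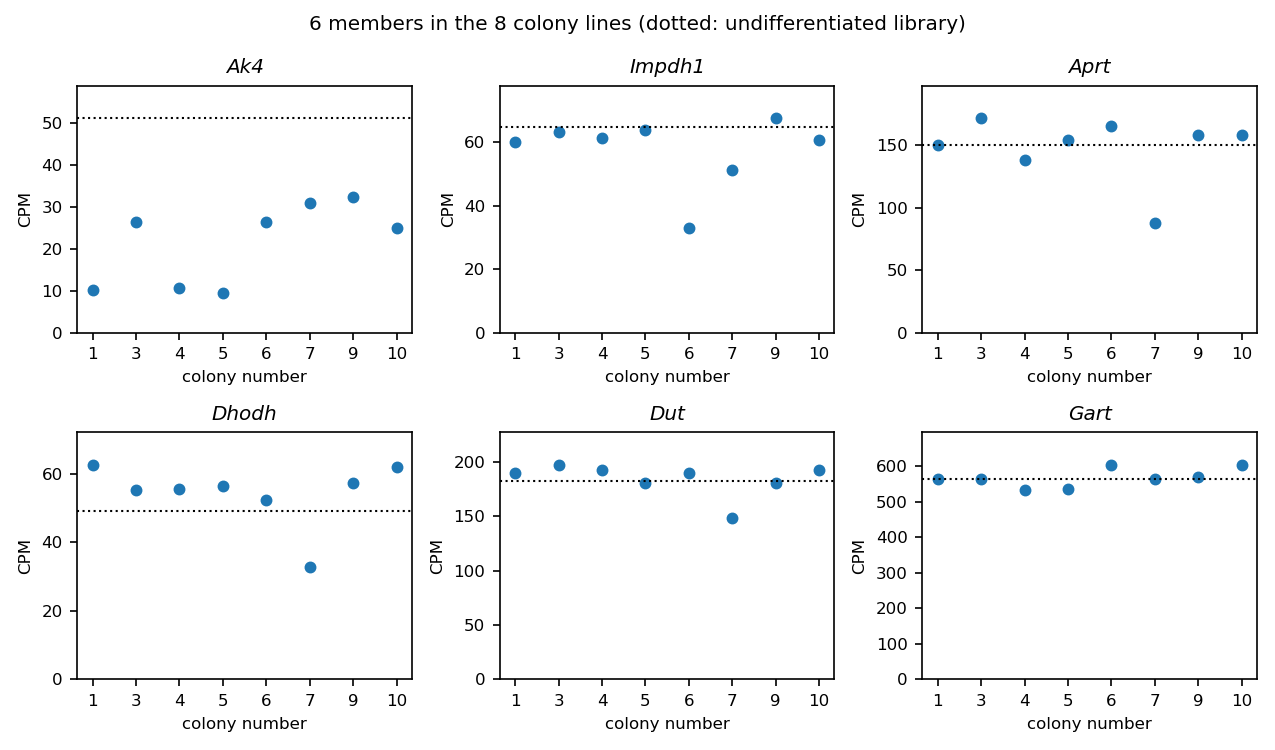
CPM of 6 members (panels) in the 8 colony lines (horizontal axis, colony number); the dotted line is the undifferentiated library. Line 7 is lowest for Aprt (87.9 CPM), Dhodh (32.9) and Dut (149), line 6 is lowest for Impdh1 (33.1), and Ak4 lies between 9.36 and 10.6 CPM in lines 1, 4 and 5.

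The scale between libraries bears on the size of these differences. Scaling by library totals alone, without the trimmed-mean factors, moved the median of all genes by 0.18 on the log2 scale between GFP-positive and undifferentiated cells, by -0.15 and -0.17 for colony and sorted lines against GFP-positive cells, and by 0.25 and 0.18 for day 15 against undifferentiated and day-2 sorted cells. Such scaling moves all genes almost alike, so the members' median relative to that of all genes stays the same by construction. It was -0.59 for GFP-positive against undifferentiated cells, and 0.5 for colony lines and 0.61 for sorted lines against GFP-positive cells. Of all genes called, 47.6% were higher in colony lines than in GFP-positive cells, and 32.6% with library totals. For sorted lines the shares were 47.9% and 30.4%, and for GFP-positive against undifferentiated cells 48.0% and 73.6%. With library totals the members called higher numbered 22 for colony lines, beside 2350 of 12225 genes. For sorted lines they numbered 18, beside 1455 of 12593 genes.

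Other genes of the same pathways, 62 entries, were read from a list. Against day 15, 16 of the 59 that passed the filter were higher in AICAR GFP-positive cells and 8 lower, beside 23.1% and 23.2% of all genes. Dctd, which makes dUMP from dCMP, was at 14.9 CPM at day 15 and 122 to 197 in GFP-positive cells (log2 3.45 ± 0.37, edgeR adjusted p = 0.00429). Dtymk, the thymidylate kinase, was at 19.8 and 85.1 to 111 CPM, and Amt, a subunit of the glycine cleavage system that loads folate in mitochondria, at 10.2 and 48.5 to 64.6 CPM. Aldh1l2, the mitochondrial enzyme that oxidises formyl-folate, went the other way, at 14.9 CPM at day 15 and 0.13 to 0.441 in GFP-positive cells (log2 -5.67 ± 0.6, edgeR adjusted p = 0.0042). Against undifferentiated cells, where 2.43% of all genes were higher and 2.62% lower, 1 of 55 was higher (Mthfd2l, at 0.455 CPM in undifferentiated and 5.51 to 8.65 in GFP-positive cells) and 2 were lower. These were Nt5e, the surface enzyme that makes adenosine from AMP, at 22.2 and 1.34 to 3.52 CPM, and Fpgs, which traps folate in cells, at 79.8 and 39.2 to 44.2 CPM. Colony lines had 22 of 54 above GFP-positive cells and 10 below, beside 27.6% and 30.3% of all genes, and sorted lines 14 and 5 of 53, beside 17.5% and 19.1%. Fpgs was at 85.4 to 111 CPM in colony lines (log2 1.21 ± 0.09 against GFP-positive cells) and Nt5e at 19.7 to 42.6 (log2 3.5 ± 0.3). None of 54 passed between GFP-positive and GFP-negative cells or between colony lines and undifferentiated cells.

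Atic, the enzyme that consumes the AICAR nucleotide, was at 324 CPM in undifferentiated cells, 393 at day 2, 361 in sorted day-2 cells and 91.5 in untreated day-15 cells. Unfractionated AICAR cells held 194 CPM of Atic, GFP-negative cells 182 and GFP-positive cells 212 to 227 (219 ± 7.97, SD, n = 3). Colony lines held 367 ± 22.3 (SD, n = 8) and sorted lines 367 ± 4.85 CPM (SD, n = 2). Atic was higher in GFP-positive than in untreated day-15 cells (log2 1.29 ± 0.16, edgeR adjusted p = 0.0054). It was higher in colony lines than in GFP-positive cells (log2 0.71 ± 0.07, edgeR adjusted p = 1.24e-06), the order seen for Gart and the Paics and Ppat entry. Adk, the kinase that phosphorylates adenosine and AICAR, was at 46.1 CPM in undifferentiated cells, 150.2 at day 2, 126 in sorted day-2 cells, 53.6 at day 15, 34.9 and 67.1 in unfractionated and GFP-negative AICAR cells, 47.2 to 55.3 in GFP-positive cells and 34.8 to 59 in colony lines. Its high level at day 2 was not seen at day 15.

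Genes of DNA replication moved with the members. Summed over 20 such markers, all of them detected in every group, the level was 6469 CPM in undifferentiated cells, 5854 at day 2, 1342 at day 15, 2877 in unfractionated and 3482 in GFP-negative AICAR cells, 4618 to 5345 in GFP-positive cells and 6435 to 6903 in colony lines. All 20 had positive log2 fold changes between GFP-positive and GFP-negative cells, with none called. All 20 were higher in GFP-positive than in untreated day-15 cells in the edgeR test, and 2 of 20 were lower in GFP-positive than in undifferentiated cells. In colony lines 11 were higher and 1 lower than in GFP-positive cells. Summed over 20 markers of G2 and mitosis, the level was 5063 CPM in undifferentiated cells, 2626 at day 15, 5270 to 6232 in GFP-positive cells and 5398 to 6009 in colony lines, so GFP-positive cells and colony lines overlapped there. The part of cell proliferation in the members' levels was not tested.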

How the data were processed

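The members and gene lists were chosen with earlier results of these data known. The authors counted uniquely mapped reads on RefSeq models without the 3′ UTR using rpkmforgenes, per the file headers, and these deposited counts are whole numbers. The authors derived RPKM from them, per the file headers, and the exon length behind them varies between libraries for some entries. RPKM were compared only for pairs whose implied length was constant over libraries or, for Shmt2, ranged from 0.8966 to 0.9015 of that of Shmt1. Reads were aligned to mm9 with TopHat2 2.0.14 and Bowtie2 2.2.5 after Trimmomatic 0.3.3, per the submitters' processing notes. The library kit keeps strand, but the strand setting of the counting is not given in the sources used here. The labels put the 19 libraries into 9 groups. CPM in the text use TMM factors over all 19 libraries. Tests used edgeR 4.0.16 (quasi-likelihood, R 4.3.3) on the deposited counts of all genes in the compared groups, with TMM and filterByExpr (minimum count 10, total 15), tested on simulated data. A lone library is assumed to vary like the replicated group. Ratios of 1 library to 1 used a prior count of 2. All members are accounted for; tests are given in full for at least the leading members of a step (up to 2 by adjusted p) and for others where a sentence compares them, and of other pathway genes for up to 4 per comparison, with Atic in every group and Adk, chosen after its values were seen. Alternatives were library totals, DESeq2 1.42.0 (size factors and Wald test), no filter, 1 fit over all groups, each small-group library left out, 1 sequencing project, and, chosen after seeing the data, colony line 7 left out. No libraries of a group agreed within counting noise.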

Additional observations from a re-analysis of the deposited data

Results flagged for a closer look

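Of the 33 entries, 6 had 1 colony line whose gap to the nearest other line, divided by the range of the 8 lines, was above Dixon's 95% critical value. Chance flags about 1 in 20 groups. The rule was run on the members only and no share over all genes was taken. The flags therefore do not set the members apart from other genes. Over all genes, line 7 also differed from every other line by more than lines within each set described above differed from each other. Line 7 was the lowest for Aprt at 87.9 CPM (nearest line, 138), for Dhodh at 32.9 CPM (52.5), for Dut at 149 CPM (180.3) and for Shmt1 at 195 CPM (213). It was the highest for Ada at 11.1 CPM (8.46). Line 6 was the lowest for Impdh1 at 33.1 CPM (51.4). The other members of the same steps did not stand apart in these lines by this measure.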

How the results depend on the processing

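Each value named per step was set against each alternative in turn, so 1 value counts several times. Of these pairs of a value and an alternative, 1218 kept their side of the threshold and direction. In 50 the value passed only under the alternative, and in 49 it no longer passed. In 6 without a test it moved by more than its standard error, and in 4 it changed sign. The 4 were Prps1 between GFP-positive and GFP-negative cells without GFP-positive replicate 1 (0.011; lowest with a replicate left out, -0.23) and within 1 sequencing project (0.17), Guk1 in that comparison within 1 project (-0.062), and Aprt between colony and sorted lines without colony line 7 (0.041; lowest with a replicate left out, -0.058). None of the 4 was a called value. For GFP-positive against undifferentiated cells the 6 lower members became 16 with DESeq2 and 18 in 1 fit over all groups, and 0 to 19 when a replicate was left out. Against day 15 the 24 higher members became 12 to 25 with a replicate left out, and 1 was called lower (Ak4) without replicate 3 and 1 in the fit over all groups, against 0. Against GFP-negative cells the counts of 0 became 5 higher with DESeq2, 14 higher and 1 lower in the fit over all groups, and 0 to 10 higher and 0 to 2 lower with a replicate left out. For colony lines against GFP-positive cells the 2 lower members became 1 without the filter, 1 to 2 with a replicate left out and 0 within 1 project. For sorted lines against GFP-positive cells the 23 higher members became 5 to 26 and the 1 lower member 0 to 1 with a replicate left out, and 2 were lower with library totals and within 1 project. The cause of these moves was not tested, and a fit with a replicate left out also has fewer libraries. Shares of all genes are not given beside these counts, so the counts do not set the members apart from other genes. Fits without GFP-positive replicate 3 keep only those of the other sequencing project, so group and project cannot be told apart in them. The other counts stayed within 1.5 times. Sorted and GFP-positive replicates share the numbers 1 and 2. Deviations of same-numbered libraries from their group means gave r = 0.038 and -0.011 over 8847 genes. With 2 sorted lines such deviations mirror each other, so these values are not independent and cannot settle whether libraries are paired. The fit with the replicate block called 28 higher and 1 lower, against 23 and 1. No other comparison shares 2 numbers in the labels. Within 1 project the comparisons of GFP-positive cells with a single library are 1 against 1 and have no test. Ada, with 19 reads in its lowest library, is the member whose precision depth limits most.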
